A study of Mus musculus with 36 samples.

Results

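Gdf15 and Fgf21, 2 genes of the 49585 in each expression table, encode secreted stress hormones and were followed through cultured mouse embryonic fibroblasts (MEFs). The rows were found by gene symbol and Ensembl identifier, ENSMUSG00000038508 for Gdf15 and ENSMUSG00000030827 for Fgf21, without using their measured values. The 2 genes themselves were chosen with earlier results of these data known. MEFs are mixed connective tissue cells grown from embryos. The libraries came from 10 MEF lines with a Tbk1 knock-in called N129D (N129D1 in the sample titles) on both alleles, on 1 or on none. Tbk1 encodes a kinase of innate immune signalling and of mitophagy, the removal of damaged mitochondria. The homozygous lines (N129D/N129D, called hom) were E2.9, E2.2 and E1.4, the heterozygous lines (N129D/wt, called het) E2.8, E2.6, E2.5 and E1.3, and the wild-type lines (wt/wt, called WT) E2.7, E2.1 and E1.5. The labels do not say what the line names stand for. Each line was sequenced after antimycin plus oligomycin for 4 h (AO), after pI:pC for 4 h, written poly(I:C) here, and without treatment, which gave 30 libraries in 9 groups. Together the pair of drugs stops the respiratory chain (antimycin, at complex III) and the mitochondrial ATP synthase (oligomycin), whereas poly(I:C) is a synthetic double-stranded RNA that mimics viral RNA. Doses were not given in the sources used here. Another 6 libraries of WT line E1.5 were labelled high or low cell density, 1 library for each density and treatment. All cells stayed in DMEM, and a line is the smallest unit with replication: the treated and untreated libraries of a genotype share their lines. N129D is a point mutation, so gene counts cannot check the genotype labels.

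GDF15 is a distant member of the TGF-beta superfamily that signals through GFRAL, a receptor of hindbrain neurons that works with RET, and lowers food intake. FGF21 is an endocrine fibroblast growth factor, made mainly by liver, that needs the co-receptor beta-Klotho (Klb) beside an FGF receptor. Both genes are known targets of the integrated stress response, in which kinases phosphorylate eIF2 alpha, the transcription factor ATF4 is translated, and ATF4 binds composite C/EBP-ATF elements, and both hormones are used as blood markers of mitochondrial disease.

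Gdf15 lies on the minus strand of chromosome 8 (chr8:70629393-70632456) and Fgf21 on the minus strand of chromosome 7 (chr7:45613886-45615490), in mm10 coordinates from GENCODE vM21. Their merged exons cover 1852 bases in Gdf15 and 951 bases in Fgf21. No other annotated gene overlaps either of them. The nearest, Fut1, lies 1798 bases from Fgf21, and the nearest to Gdf15, Lrrc25, lies 7909 bases away. Start-site windows are shown because both genes were higher under AO: each runs from 250 bases before to 50 bases after a RefSeq start (GRCm38.p6), reads 5' to 3' along the gene's own strand, and has any match to 2 of the motifs searched in capitals. These motifs are the C/EBP-ATF element, TGATGNAA or its reverse complement TTNCATCA, and CACGTG, the E-box read by MITF, TFEB and TFE3 among others. RefSeq gives Gdf15 a pair of starts, with windows at chr8:70632407-70632706 and chr8:70632046-70632345, and Fgf21 a single start, with its window at chr7:45615441-45615740.
Gdf15 window 1: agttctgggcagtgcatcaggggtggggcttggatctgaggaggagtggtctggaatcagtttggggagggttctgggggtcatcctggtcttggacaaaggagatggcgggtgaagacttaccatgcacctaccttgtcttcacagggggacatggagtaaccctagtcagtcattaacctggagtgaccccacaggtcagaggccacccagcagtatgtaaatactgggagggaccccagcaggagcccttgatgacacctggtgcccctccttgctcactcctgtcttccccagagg
Gdf15 window 2: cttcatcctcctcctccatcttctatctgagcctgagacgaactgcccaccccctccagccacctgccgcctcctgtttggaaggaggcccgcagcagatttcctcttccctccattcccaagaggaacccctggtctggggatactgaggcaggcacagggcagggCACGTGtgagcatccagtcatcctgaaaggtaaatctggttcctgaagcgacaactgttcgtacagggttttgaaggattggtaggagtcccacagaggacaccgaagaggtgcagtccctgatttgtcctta
Fgf21 window: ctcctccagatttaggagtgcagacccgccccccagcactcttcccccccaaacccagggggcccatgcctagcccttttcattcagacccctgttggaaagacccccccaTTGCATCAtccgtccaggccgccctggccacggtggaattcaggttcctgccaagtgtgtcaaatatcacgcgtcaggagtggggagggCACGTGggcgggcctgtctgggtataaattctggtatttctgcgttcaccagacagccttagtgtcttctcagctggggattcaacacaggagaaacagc

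The Fgf21 window held the C/EBP-ATF element as TTGCATCA on the opposite strand, 139 bases before the start, and CACGTG 50 bases before it. Of 32851 RefSeq windows searched on both strands, 3.97% held the C/EBP-ATF element and 7.15% held CACGTG. Gdf15 window 1 had no match, and window 2 had CACGTG 83 bases before its start. Neither gene's windows matched TGACNNNGC, the core of the antioxidant response element, found in 12.4% of windows, or TGACGTCA, the cyclic AMP response element, found in 1.79%. These matches overlap no other motif searched in the windows shown. A match describes letters in a window, and no binding was measured.

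The 30 libraries without a density label held 3689149 to 14879237 reads assigned to genes, the high-density libraries 16474021 to 22756884 and the low-density ones 5391401 to 6307971. Values are CPM, counts divided by the library size after TMM scaling. Of 12 fibroblast markers, Col1a1, Col1a2, Vim and Fn1 were the most abundant, with medians of 1837, 1401, 1898 and 6200 CPM. Each of these was above 0 in all 30 libraries. Lum, at a median of 0.54 CPM, was at 0 in 3 libraries, and Dcn, at 15.6 CPM, in 1. The sum of the 12 had a median of 10500 CPM under AO, 15240 CPM after poly(I:C) and 12290 CPM untreated. Hepatocyte and adipocyte marker sums, over 8 and 6 genes, reached at most 1.67 and 3.22 CPM in any of the 30 libraries. Line E2.9 stood apart by its macrophage markers: the sum of 14 genes, among them Csf1r, Lyz2 and C1qb, was 166.5 CPM under AO, 264.8 CPM under poly(I:C) and 270.1 CPM untreated, with all 14 above 0. Line E2.6 followed with 37.75, 60.25 and 62.98 CPM, and the other lines had 1.377 to 25.07 CPM. Adgre1, a defining macrophage gene, was at 0 in 22 of the 30 libraries. Other lists moved too. The endothelial sum of 6 genes had a median of 16.5 CPM under AO (12.05 to 35.53), against 6.492 CPM untreated (4.045 to 22.64), Kdr being the most abundant of them, with Cldn5 at 0 in 24 and Emcn in 20 of the 30 libraries. The skeletal muscle sum of 8 genes was 39.87 CPM under AO, 31.31 CPM after poly(I:C) and 32.05 CPM untreated in hom line E1.4, against 1.834 to 5.33 CPM in the other hom lines, with Myod1 at 0 in 23 libraries. Het lines E2.6, at 21.38 to 34.15 CPM, and E2.5, at 11.57 to 15.77 CPM, were next. E2.5 had the highest epithelial sum of 6 genes, at 68.51 to 89.69 CPM. Line E2.6 stood apart also by its ATF4 target genes: 31 of them summed to 2448 CPM untreated, against 5251 to 6550 CPM in the 9 other untreated libraries. The main results are given with and without E2.6, E2.9, E1.4 and E2.5, and the part of these marker genes in them was not tested.

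Gdf15 rose under AO in every genotype, 7.54- to 9.89-fold by group means, and its lowest AO library lay above its highest untreated library. In hom lines Gdf15 stood at 15.9 CPM in E1.4, 11 CPM in E2.2 and 6.49 CPM in E2.9 under AO, against 0.493, 1.63 and 1.26 CPM untreated in the same order of lines. In het lines it stood at 6.35 CPM in E1.3, 12.8 CPM in E2.5, 8.55 CPM in E2.6 and 10.1 CPM in E2.8 under AO, against 0.451, 1.85, 1.32 and 0.395 CPM untreated. In WT lines it stood at 4.66 CPM in E1.5, 11.3 CPM in E2.1 and 10.9 CPM in E2.7 under AO, against 0.318, 0.855 and 2.39 CPM untreated. The AO and untreated libraries did not overlap in any genotype, nor over all 10 lines, and the highest value of all was in hom line E1.4. In raw reads this was 24 to 167 per AO library and 2 to 13 per untreated library, 680 against 73 over the 10 lines, so the untreated levels carry wide counting error. In the edgeR quasi-likelihood fit over all 9 groups, the log2 change was 3.28 ± 0.62 (SE) in hom lines (Benjamini-Hochberg adjusted p = 0.00113), 3.24 ± 0.55 in het lines (adjusted p = 0.000379) and 2.98 ± 0.63 in WT lines (adjusted p = 0.00448). The same test called 13.1% of 13364 tested genes in hom lines, 11.1% in het lines and 7.66% in WT lines. Among called genes, 2 in hom lines, 2 in het lines and 0 in WT lines had a larger rise than Gdf15. Among all tested genes, called or not, 14, 8 and 14 did. The share of all tested genes whose AO and untreated libraries do not overlap is not given here. In bulk RNA, more cells making a transcript and more RNA per cell cannot be told apart.

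**Figure D1:**
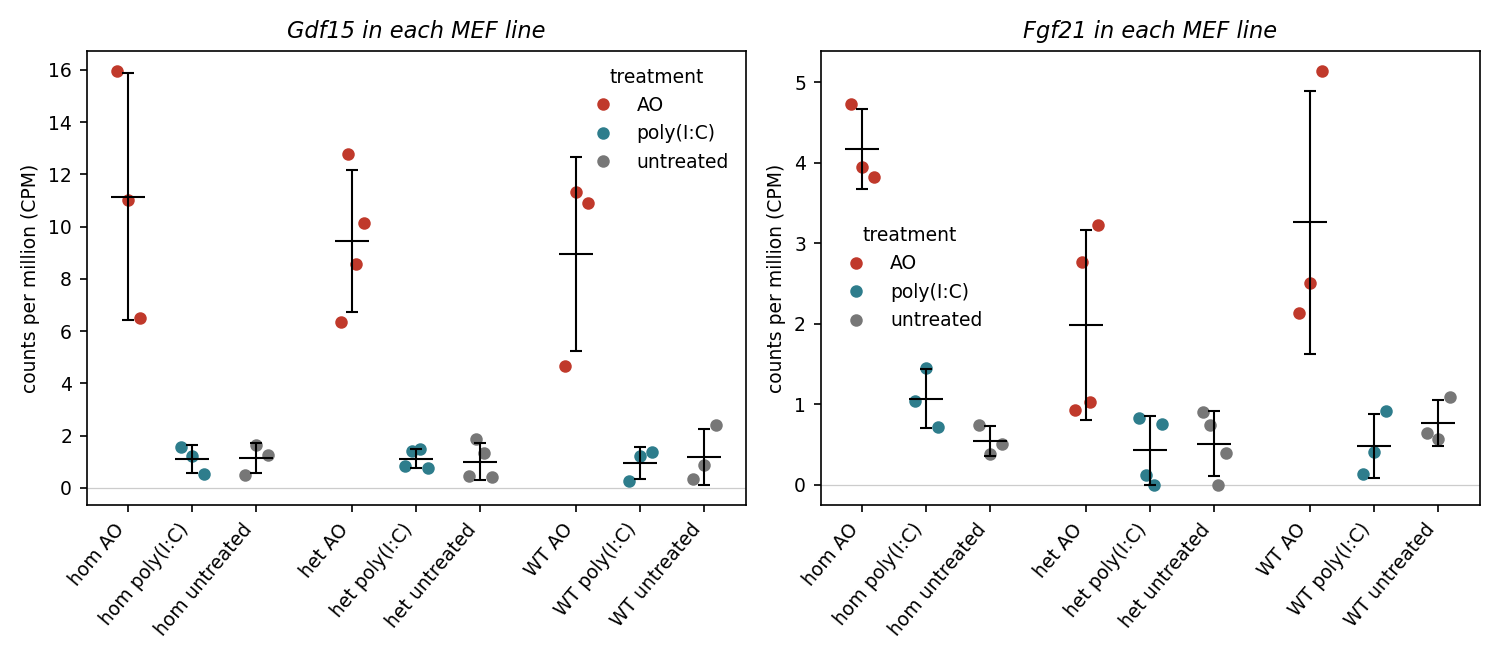
Levels of Gdf15 (left) and Fgf21 (right) in CPM, on linear axes with different scales. Each point is 1 MEF line (3 hom, 4 het, 3 WT), the long bar is the group mean and the whiskers are the SD. All 10 AO libraries of Gdf15 lie at 4.66 CPM or higher, above every poly(I:C) and untreated library, while 2 het AO libraries of Fgf21 lie near 1 CPM.

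Without line E2.9, the line with macrophage markers, the Gdf15 change in hom lines was 3.63 (adjusted p = 0.00810), in a fit that called 5.51% of genes. Without line E2.6 it was 3.48 in het lines (adjusted p = 0.00169), in a fit that called 11.6%, and without line E2.5 it was 3.46 (adjusted p = 0.00258). Leaving out E2.1, whose AO library is the deepest of the 30, ended the call in WT lines (2.57, adjusted p = 0.130), and fitting only the hom AO and hom untreated libraries ended it there (3.29, adjusted p = 0.0829), a fit in which 3 of 12195 genes passed. The size of the change also depended on single lines: it was 2.56 in hom lines without E1.4 (adjusted p = 0.0225) and 3.70 in WT lines without E2.7 (adjusted p = 0.0166).

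Fgf21 was also higher under AO, at lower levels and less evenly. In hom lines it stood at 4.73 CPM in E1.4, 3.94 CPM in E2.2 and 3.82 CPM in E2.9 under AO, against 0.739, 0.376 and 0.504 CPM untreated. In het lines it stood at 0.923 CPM in E1.3, 2.77 CPM in E2.5, 1.03 CPM in E2.6 and 3.22 CPM in E2.8 under AO, against 0.902, 0.739, 0 and 0.395 CPM untreated. In WT lines it stood at 2.14 CPM in E1.5, 2.51 CPM in E2.1 and 5.13 CPM in E2.7 under AO, against 0.635, 0.570 and 1.09 CPM untreated. After TMM scaling, AO and untreated libraries did not overlap within any genotype. The share of all tested genes that separate in this way is not given here. The margin in het lines was narrow, because E1.3 barely differed and E2.6 was low throughout. It rests on 0.923 against 0.902 CPM, both in E1.3, and is lost on library totals, with 8 of 8486296 reads against 6 of 6350486. Over all 10 lines the AO and untreated libraries overlapped, with the AO value higher in 98 of 100 cross-line pairs. These levels rest on 7 to 41 reads per AO library and 0 to 6 per untreated library, 197 against 39 in all.

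The fitted log2 change of Fgf21 passed the threshold in hom lines, at 2.9 ± 0.79 (edgeR quasi-likelihood adjusted p = 0.0156). It missed it at 1.97 ± 0.70 in het lines (adjusted p = 0.0698; 95% interval 0.53 to 3.41) and at 2.1 ± 0.77 in WT lines (adjusted p = 0.101; 95% interval 0.51 to 3.69). Because each line was measured under all treatments, the fit was repeated with line as a block. With the block Fgf21 rose in every genotype, by 2.91 ± 0.55 in hom lines (adjusted p = 0.000479), 1.98 ± 0.54 in het lines (adjusted p = 0.00874) and 2.03 ± 0.54 in WT lines (adjusted p = 0.0101). Over all tested genes the block fit called 14.6% higher and 15% lower in hom lines, 12.9% and 14.6% in het lines, and 11.2% and 11.7% in WT lines. The hom call without the block was lost when any 1 of its lines was left out, at 3.07 without E1.4 (adjusted p = 0.0547), 2.72 without E2.2 (adjusted p = 0.118) and 2.9 without E2.9 (adjusted p = 0.0943), and when only the 2 hom groups were fitted (2.91, adjusted p = 0.0708). Without E2.6 the het value was 1.74 (adjusted p = 0.0675) and without E2.5 it was 1.98 (adjusted p = 0.181). The filter asked for 1.54 CPM or more in 3 libraries, which Gdf15 met in all 10 AO libraries and in 3 untreated ones. Fgf21 met it in 8 AO libraries and no other, so it entered these fits through the AO libraries.

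Within lines, AO minus untreated could be set out without that filter, as the difference of log2(CPM + 0.5), a scale that understates changes of low genes. Gdf15 rose in 10 of 10 lines by 2.75 ± 0.67 (mean, SD), and the two-sided exact permutation test over sign flips gave p = 0.001953, the smallest 10 lines allow. The largest difference was 4.05 in hom line E1.4 and the smallest 1.98 in WT line E2.7. Fgf21 was higher in 10 of 10 lines by 1.62 ± 0.67, with the same exact p of 0.001953. Line E1.3 stood out with a difference of 0.02, from 8 of 8486296 reads under AO and 6 of 6350486 untreated. On library totals without TMM it was not higher under AO, so the Fgf21 count of 10 lines and its p hold with TMM scaling. The other lines ran from 1.22 in E1.5 to 2.34 in E2.2. The AO library of E1.3 did show the rise in Gdf15, by 2.85, and an ATF4 target sum of 9680 CPM, inside the 7186 to 10220 CPM of the AO libraries.

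**Figure D2:**
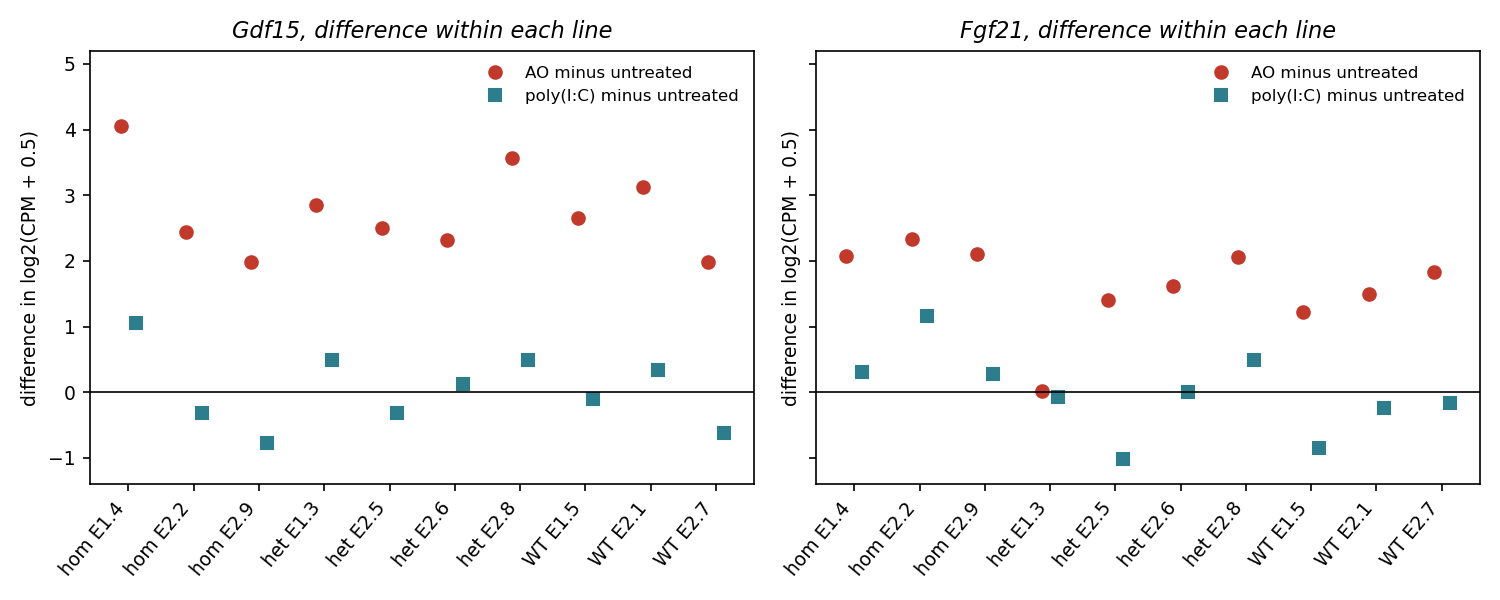
Difference from the untreated library of the same line on the log2(CPM + 0.5) scale, for Gdf15 (left) and Fgf21 (right), with 1 circle (AO) and 1 square (poly(I:C)) for each of the 10 lines. AO circles of Gdf15 lie between 1.98 and 4.05, and those of Fgf21 between 1.22 and 2.34 except in het line E1.3, at 0.02, while the squares scatter around 0.

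Poly(I:C) gave no detectable change of either gene. After poly(I:C) Gdf15 had 1.56 CPM in E1.4, 1.21 in E2.2 and 0.534 in E2.9 (hom), 0.832 CPM in E1.3, 1.4 in E2.5, 1.48 in E2.6 and 0.756 in E2.8 (het), and 0.262 CPM in E1.5, 1.22 in E2.1 and 1.37 in E2.7 (WT). Fgf21, with the lines in the same order, had 1.04, 1.45 and 0.712 CPM in hom, 0.832, 0.116, 0 and 0.756 CPM in het, and 0.131, 0.406 and 0.915 CPM in WT lines. These values overlap the untreated ones in every genotype for both genes, by the least for Fgf21 in hom lines, where 0.712 CPM after poly(I:C) in E2.9 lay under the 0.739 CPM of untreated E1.4. Within lines the mean difference was 0.04 ± 0.57 for Gdf15 (higher in 5 lines, lower in 5, exact permutation p = 0.832) and -0.01 ± 0.63 for Fgf21 (higher in 4, lower in 5, equal at 0 reads in E2.6, exact permutation p = 0.961).

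The fitted poly(I:C) changes of Gdf15 were -0.01 in hom lines (95% interval -1.41 to 1.39), 0.19 in het lines (-1.01 to 1.38) and -0.33 in WT lines (-1.8 to 1.14). Those of Fgf21 were 0.94 in hom lines (-0.75 to 2.62), -0.22 in het lines (-1.85 to 1.4) and -0.72 in WT lines (-2.59 to 1.14). Every interval includes 0, and each still allows a change of 2-fold or more in some direction, so smaller effects could not be seen at this depth. Genes were called in these comparisons, 1.28% of those tested in hom lines, 4.67% in het lines and 3.2% in WT lines.

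Set directly against poly(I:C), Gdf15 was higher under AO by 3.29 ± 0.64 in hom lines (adjusted p = 0.000839), 3.05 ± 0.54 in het lines (adjusted p = 0.000302) and 3.31 ± 0.65 in WT lines (adjusted p = 0.00107). Its 10 AO libraries, 4.66 to 15.9 CPM, lay above its 10 poly(I:C) libraries, 0.262 to 1.56 CPM. How many of all tested genes separate in this way is not given here. Fgf21 was higher by 2.2 ± 0.71 in het lines (adjusted p = 0.0325) and 2.82 ± 0.83 in WT lines (adjusted p = 0.0216), and by 1.96 ± 0.76 in hom lines, where it missed the threshold (adjusted p = 0.0768) but passed with line as a block (2.01 ± 0.53, adjusted p = 0.00565), a fit that called 34.7% of genes. The edgeR test called 17.5% of tested genes in hom lines, 18.4% in het lines and 16.2% in WT lines. Fgf21 met the count filter in no poly(I:C) library, so it entered this fit through its AO libraries. Without the filter its het call was lost. Leaving out any 1 WT line (2.49 to 3.11, adjusted p 0.0992 to 0.161), or het line E2.5 (1.63, adjusted p = 0.219) or E2.8 (2.22, adjusted p = 0.123), ended the Fgf21 call in that genotype, and without E1.3 the het value was 3.05 (adjusted p = 0.0222).

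**Figure D3:**
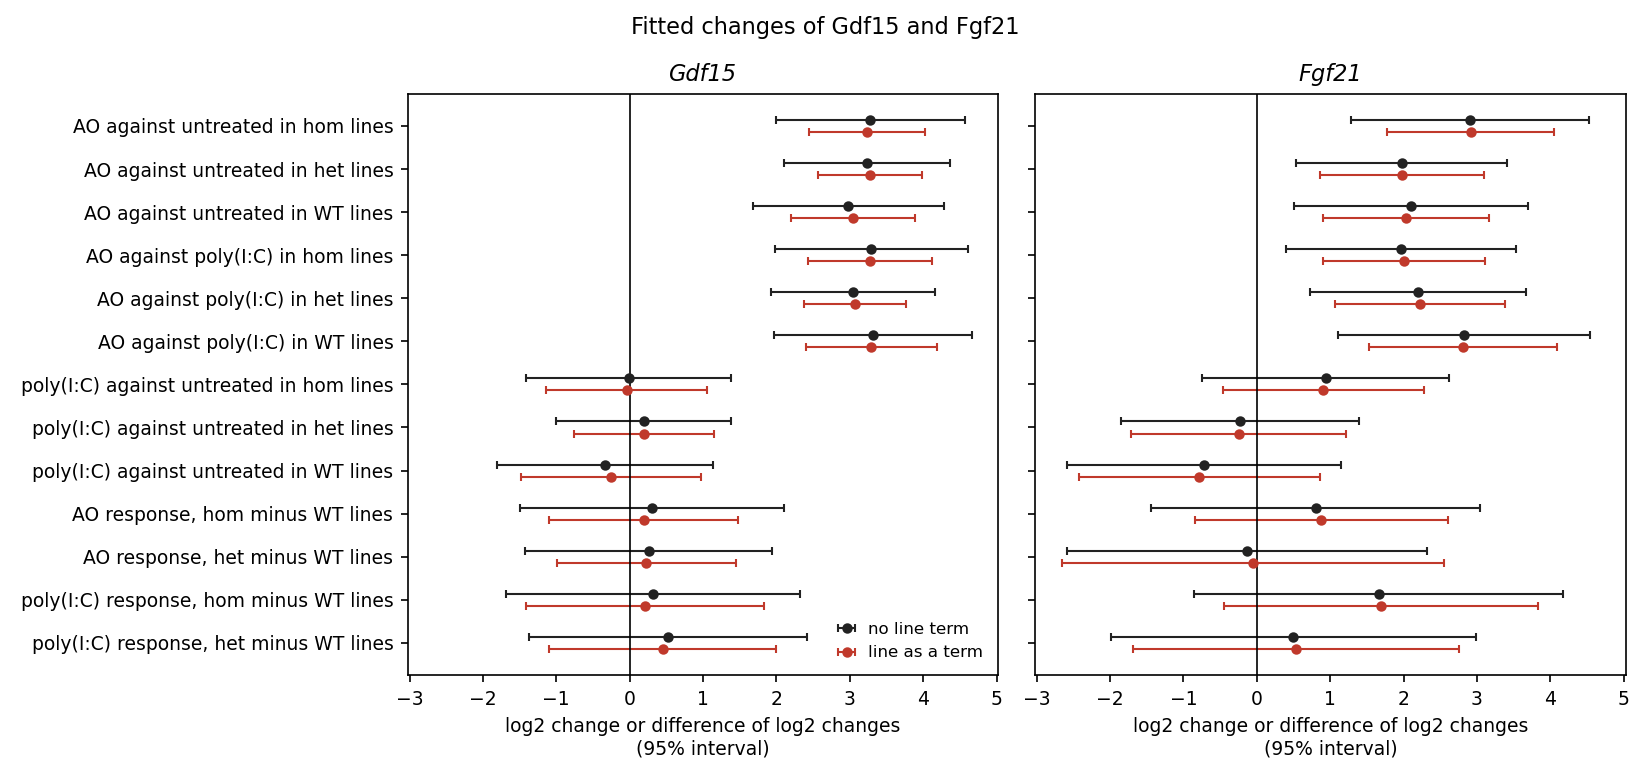
Fitted log2 changes, and differences between genotypes in those changes, with 95% intervals for Gdf15 (left) and Fgf21 (right). Black points come from the fit without a line term and red points from the fit with line as a block. AO intervals lie above 0 in every genotype for both genes, and the poly(I:C) and response-difference intervals span 0.

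The genotypes were compared to ask whether the Tbk1 allele altered the response. The AO response of Gdf15 was larger in hom than in WT lines by 0.30 (95% interval -1.49 to 2.1) and in het than in WT lines by 0.26 (-1.43 to 1.94), neither past the threshold. For Fgf21 the difference of AO responses was 0.80 in hom minus WT lines (-1.45 to 3.05) and -0.13 in het minus WT lines (-2.58 to 2.32). These intervals are wide enough to hold differences of 4-fold or more for Fgf21. The poly(I:C) responses differed by 0.32 (-1.69 to 2.33) and 0.52 (-1.37 to 2.42) for Gdf15, and by 1.66 (-0.85 to 4.18) and 0.50 (-1.99 to 2.99) for Fgf21, hom minus WT first and het minus WT second. In none of these 4 contrasts did edgeR call a gene, 0% of those tested, with 125 genes for the hom and 33 for the het AO response at an unadjusted p under 0.05, 156 and 74 for poly(I:C), and 0 calls by DESeq2 in each.

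Levels under the same treatment did not separate the genotypes either. Under AO, Gdf15 was 0.30 higher in hom than in WT lines on the log2 scale (-0.83 to 1.43) and 0.06 higher in het than in WT lines (-0.98 to 1.11). Fgf21 under AO was 0.35 higher in hom lines (-1.08 to 1.78) and 0.72 lower in het lines (a change of -0.72, -2.06 to 0.61). After poly(I:C) the largest gap was in Fgf21, 1.21 in hom against WT lines (-0.61 to 3.03, adjusted p = 1), and the untreated differences lay between -0.60 and 0. Over all genes edgeR called 0% for hom against WT lines under AO, 0.254% after poly(I:C) and 0.015% untreated, and 0% for het against WT lines in each of the 3 treatments. For the zero counts, 1446 genes (hom under AO) and 64, 140 and 90 genes (het under AO, poly(I:C) and untreated) had an unadjusted p under 0.05, and DESeq2 called 35, 0, 0 and 0.

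Ordered by mean, the Gdf15 groups were hom AO (11.2 ± 4.72 CPM, SD), het AO (9.45 ± 2.7), WT AO (8.95 ± 3.72), WT untreated (1.19 ± 1.07), hom untreated (1.13 ± 0.580), het poly(I:C) (1.12 ± 0.375), hom poly(I:C) (1.1 ± 0.523), het untreated (1.0 ± 0.705) and WT poly(I:C) (0.95 ± 0.601), with n of 3 for hom and WT and 4 for het. Only the step between WT AO and WT untreated separated neighbours beyond the range of their libraries. The Fgf21 groups were hom AO (4.16 ± 0.496 CPM, SD), WT AO (3.26 ± 1.63), het AO (1.99 ± 1.18), hom poly(I:C) (1.07 ± 0.370), WT untreated (0.764 ± 0.281), hom untreated (0.540 ± 0.184), het untreated (0.509 ± 0.400), WT poly(I:C) (0.484 ± 0.398) and het poly(I:C) (0.426 ± 0.429), and here every pair of neighbours overlapped. Per kilobase of exon, the median over the 10 lines was 5.67 CPM for Gdf15 and 3.15 CPM for Fgf21 under AO, against 0.571 and 0.634 CPM untreated. Of the 13364 tested genes, 31% lay below Gdf15 and 16.7% below Fgf21 in median CPM under AO, against 4.84% and 1.33% untreated, so both remained genes of low abundance.

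The pathway lists used from here on were chosen with earlier results of these data known, so their counts are descriptions and not tests. Among 15 tested genes of integrated stress response signalling, 5 rose and 1 fell under AO in hom lines. In het lines 3 rose and 2 fell, and in WT lines 1 rose. Over all tested genes 7.36% rose and 5.73% fell in hom lines, 6.17% and 4.95% in het lines, and 4.23% and 3.43% in WT lines, so the WT count was near that of all genes. Ppp1r15a, which encodes the inducible GADD34 subunit that restores eIF2 alpha, rose in every genotype by 2.52 ± 0.28, 2.35 ± 0.24 and 2.36 ± 0.28 (hom, het and WT, adjusted p 2.9e-06 to 4.0e-05). Its constitutive counterpart Ppp1r15b rose by 0.44 ± 0.14 in hom and 0.45 ± 0.12 in het lines. Oma1, the mitochondrial protease that cleaves DELE1 to report mitochondrial stress, fell by 0.93 in hom lines (adjusted p = 0.00391) and by 0.59 in het lines (adjusted p = 0.0264). Dele1 itself had 0.10 ± 0.15, 0.18 ± 0.13 and 0.24 ± 0.15, none past the threshold. Impact, an inhibitor of the eIF2 kinase GCN2, rose by 0.94 in hom and 0.83 in het lines. Under the block Ppp1r15b rose by 0.41 (adjusted p = 0.0124) and Oma1 fell by 0.54 (adjusted p = 0.0405) in WT lines too. With the block 5, 4 and 4 of the 15 rose and 2 fell in each genotype, the falls at about the share of all genes in that fit, without E2.9, 2 rose and 1 fell in hom lines, and without E2.6, 4 rose and 1 fell in het lines.

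Of 23 tested transcription factors linked to Gdf15 or Fgf21, 12 rose in hom lines, 12 in het lines and 10 in WT lines, and 0 fell, against the same shares of all genes, with a list median of 0.70, 0.64 and 0.65 against 0.00, -0.04 and -0.02 over all genes tested. With line as a block 15, 16 and 16 rose, and without E2.9 the hom count was 5. Ddit3, which encodes CHOP, rose by 2.0 ± 0.37, 2.02 ± 0.32 and 1.76 ± 0.37, and Atf3, a stress-induced factor, by 2.79 ± 0.47, 2.67 ± 0.41 and 2.5 ± 0.47. Atf6, the endoplasmic reticulum stress sensor, rose by 1.33, 1.24 and 1.34. Atf4, regulated mainly through translation, rose by 0.92 ± 0.27 in hom and 0.84 ± 0.23 in het lines and had 0.69 ± 0.27 in WT lines (adjusted p = 0.127). Nfe2l2, which encodes NRF2, rose by 0.70, 0.63 and 0.65. Trp53 (-0.05, 0.05 and 0.18), Atf5 (0.56, 0.74 and 0.59), Tfe3 (0.20, 0.23 and 0.33) and Tfeb (-0.23, 0.04 and 0.61) did not pass in any genotype. With the block Atf4 rose in WT lines by 0.69 (adjusted p = 0.0024), Atf5 rose in every genotype by 0.59, 0.88 and 0.59 (adjusted p 0.0004 to 0.0241), and Tfe3 rose in het and WT lines by 0.23 and 0.32 (adjusted p 0.0456 and 0.0212).

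Of 31 ATF4 target genes, 9 rose in hom lines, 16 in het lines and 8 in WT lines, and 0 fell, with list medians of 0.81, 0.88 and 0.71, against 7.36%, 6.17% and 4.23% of all tested genes higher. With line as a block 21, 28 and 21 rose, against 14.6%, 12.9% and 11.2% of all genes. Slc3a2, the heavy chain of amino acid transporters, rose by 1.62, 1.57 and 1.51, and Slc7a1, a transporter of cationic amino acids, by 1.5, 1.55 and 1.38. Chac1, a glutathione-degrading enzyme, rose by 1.74 ± 0.41 in het lines and had 0.87 ± 0.47 in hom and 1.20 ± 0.47 in WT lines. Sesn2, a sestrin that restrains mTORC1, and Asns, asparagine synthetase, passed in het lines (1.04 and 0.88) and missed in the other genotypes, and Trib3, an ATF4-induced pseudokinase, missed in all (1.24, 1.5 and 1.09). With the block Asns and Sesn2 rose in hom and WT lines as well, by 0.83 and 0.63 for Asns and 0.65 and 0.69 for Sesn2 (adjusted p 0.0005 to 0.0435), Chac1 rose in WT lines by 1.2 (adjusted p = 0.04), and Trib3 rose in hom lines by 1.24 and in het lines by 1.96 (adjusted p 0.0399 and 0.0014). Without E2.6 the het count was 21, and without E2.9 the hom count was 4. Of the 25 targets with a RefSeq window, 10 held the C/EBP-ATF element in any window, against 4.51% of the 27025 genes searched. After poly(I:C), 0 of the 31 targets passed in any genotype by edgeR or DESeq2. Over all tested genes edgeR called 1.28% in hom, 4.67% in het and 3.2% in WT lines, so a count of 0 is near that share. At an unadjusted p under 0.05 there were 0, 1 and 0 targets, against 12%, 17.7% and 16.7% of all genes. In the same comparison Atf3 rose by 2.74 ± 0.41 in het and 2.49 ± 0.47 in WT lines, and Ppp1r15a by 1.25 ± 0.23 and 1.0 ± 0.27. Under the block 0 of the targets passed in hom lines, 2 rose and 2 fell in het lines and 1 rose in WT lines, fewer of the list than the 9.79%, 17.8% and 15.7% called over all genes. With the block Atf3 rose after poly(I:C) in hom lines too, by 1.43 (adjusted p = 0.0011).

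**Figure D4:**
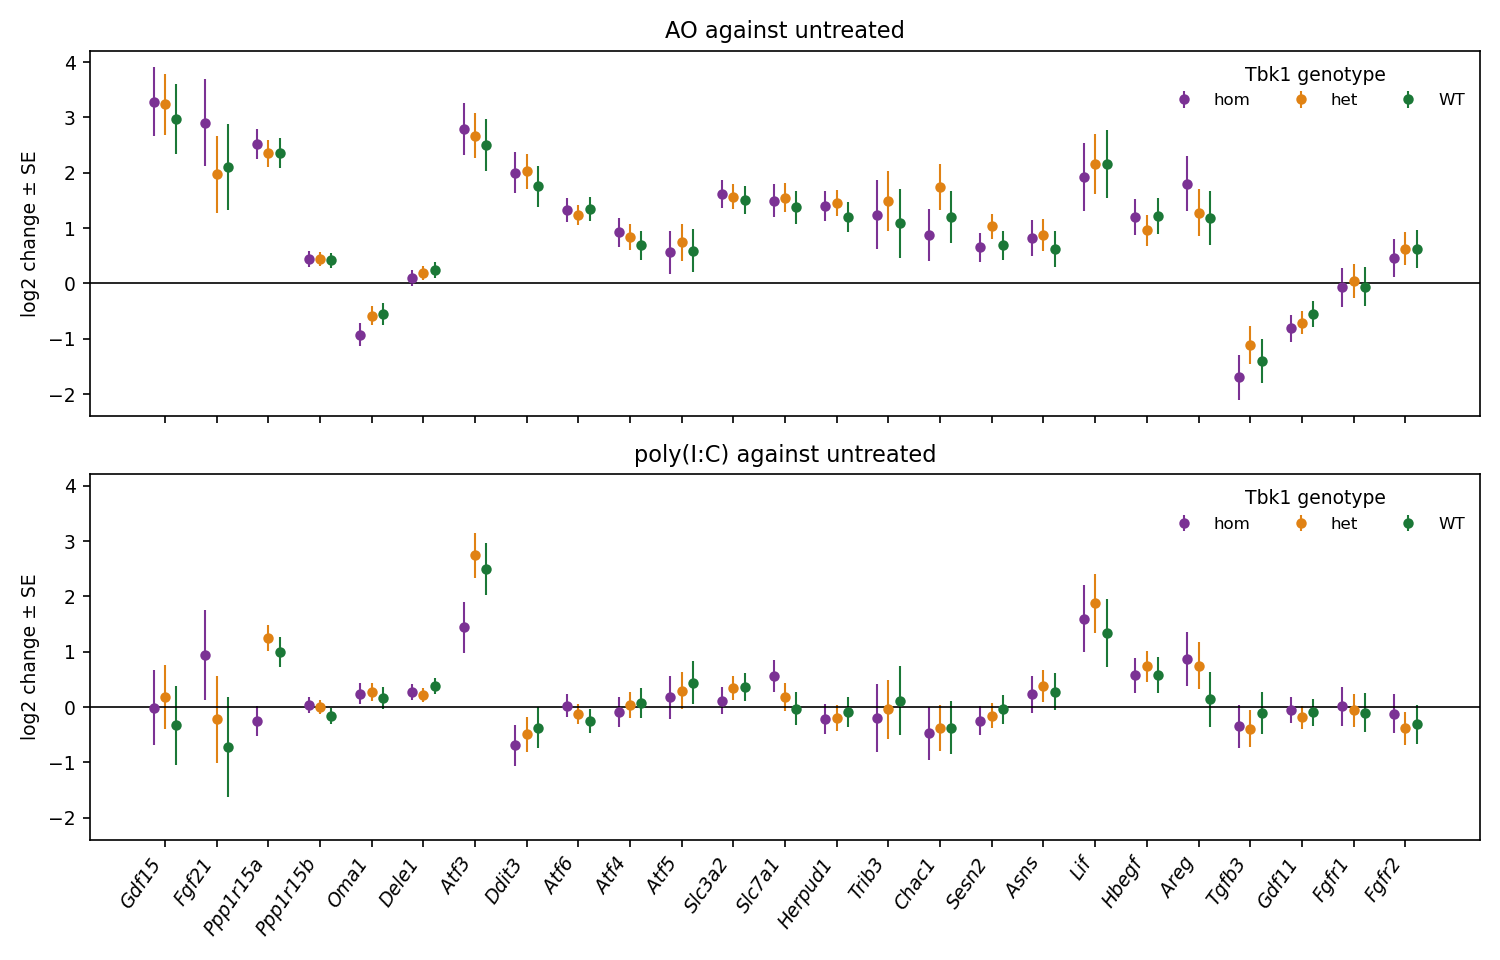
Fitted log2 change with its SE for both hormone genes and for named genes of their pathway, after AO (top) and poly(I:C) (bottom), in hom, het and WT lines. Under AO the stress response genes Ppp1r15a, Atf3 and Ddit3 lie between 1.76 and 2.79 in every genotype, and Tgfb3 lies below 0. After poly(I:C), Atf3 lies between 1.44 and 2.74.

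Without AO, het line E2.6 was low in Atf4 and its targets and in Fgf21, and the part of these genes in the Fgf21 values was not tested. Untreated het line E2.6 had 254.7 CPM of Atf4, 20.9 CPM of Ddit3, 3.36 CPM of Chac1 and 7.92 CPM of Trib3, whereas the 9 other untreated libraries had 497 to 731.1, 61.5 to 102.8, 41.7 to 70.3 and 82.7 to 171.5 CPM. Under AO it had the lowest Atf4, at 722.7 CPM, and the lowest target sum, at 7186 CPM, of the 10 AO libraries. Its Chac1 was then the highest, at 143.7 CPM, and its Trib3, at 213.9 CPM, and Ddit3, at 238.2 CPM, lay inside the range of the others. The same line had 0 Fgf21 reads untreated and 0 after poly(I:C), the only libraries without one, which allows up to 0.360 and 0.494 CPM (3 reads each). Its AO value of 1.03 CPM was 2.86 times the untreated limit. That value rests on 7 reads, with an exact 95% Poisson interval of 0.415 to 2.13 CPM. The interval begins only just above the untreated limit of 0.360 CPM, so 2.86 is not a lower bound. Its Gdf15 was not low, at 1.32 CPM untreated and 1.48 CPM after poly(I:C). Hom line E1.4, which had the highest Gdf15, was mixed. Under AO it had the highest Atf4, at 1531 CPM, Ddit3, at 491.9 CPM, and Trib3, at 412.7 CPM, of the 10 AO libraries, but the lowest Chac1, at 87.91 CPM, and its sum of 31 targets, 10050 CPM, lay inside the 7186 to 10220 CPM of the AO libraries.

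Receptors of the hormones were at or near 0 reads or did not pass. Gfral had 0 reads in all 30 libraries, Klb 14, Kl 20 and Fgfr4 39 reads in total, too few to test. Of the 4 receptors tested, none passed: Fgfr1, the main partner of beta-Klotho, had -0.07, 0.04 and -0.06, Fgfr2 had 0.46, 0.63 and 0.62, and Ret had -0.24, 0.11 and 0.10 in hom, het and WT lines. DESeq2 called 0 of the 4, and 0, 1 and 0 had an unadjusted p under 0.05. With line as a block Fgfr2 rose in every genotype, by 0.50, 0.64 and 0.65 (adjusted p 0.0014 to 0.0247). Among 7 proteases that mature or cleave these proteins, Mmp14, which in mice cleaves GFRAL, fell by 0.56 in hom lines (adjusted p = 0.0448). Furin, a proprotein convertase, and Fap, whose protein inactivates human FGF21, did not pass. With the block Mmp14 fell in het and WT lines too, by 0.38 and 0.46 (adjusted p 0.0035 and 0.0032), and Fap fell in hom lines by 0.93 (adjusted p = 0.0175).

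Of 7 fibroblast growth factors tested beside Fgf21, edgeR and DESeq2 called 0 in any genotype, with 0 at an unadjusted p under 0.05, and Fgf2 had -0.50 ± 0.51, -0.39 ± 0.43 and -0.19 ± 0.50. With line as a block 1 rose and 1 fell in hom lines and 1 fell in het lines, where Fgf2 fell by 0.57 in hom and 0.40 in het lines (adjusted p 0.0199 and 0.0317), counts at about the share of all genes or below it. Of 16 tested genes of the TGF-beta superfamily list, which also holds the protease Bmp1, none rose, also with line as a block. Tgfb3 fell by 1.7 in hom lines (adjusted p = 0.00620), by 1.11 in het lines (adjusted p = 0.0347) and by 1.41 in WT lines (adjusted p = 0.0296). Gdf11, a close relative of myostatin, fell by 0.81 in hom and 0.71 in het lines. With the block 5, 6 and 5 of the 16 fell in hom, het and WT lines, Gdf11 in WT lines by 0.54 (adjusted p = 0.0103), against 15%, 14.6% and 11.7% of all genes lower and 14.6%, 12.9% and 11.2% higher in that fit. Gdnf, the ligand of a GFRAL-related receptor, had 1.58, 1.55 and 1.59 and missed the threshold (adjusted p 0.0808, 0.0517 and 0.109). Of 5 tested genes of the GDNF family and its receptors edgeR called 0, with 1, 1 and 2 at an unadjusted p under 0.05, DESeq2 called 1 in hom, 1 in het and 0 in WT lines, and with line as a block Gdnf rose in each genotype, by 1.52, 1.56 and 1.58 (adjusted p 2.6e-06 to 2.6e-05). Of 15 other secreted stress factors, 4 rose in hom lines and 3 in het and WT lines: Lif, a cytokine of the interleukin-6 family, by 1.93, 2.15 and 2.16, Hbegf, an EGF receptor ligand, by 1.21, 0.96 and 1.21, and Clcf1, by 0.69, 0.62 and 0.72, with Areg, another EGF receptor ligand, rising by 1.8 in hom lines. Over all genes 7.36%, 6.17% and 4.23% rose. With the block Areg rose in het and WT lines too, by 1.26 and 1.18 (adjusted p 0.0008 and 0.0048). Without E2.9, 1 rose in hom lines, and with the block 6, 5 and 6 rose and 1, 2 and 1 fell, against 14.6%, 12.9% and 11.2% of all genes higher and 15%, 14.6% and 11.7% lower. Of 22 p53 target genes, 4 rose and 2 fell in hom lines, against 7.36% higher and 5.73% lower over all genes there. In het and in WT lines 1 rose and 1 fell, about the 11.1% and 7.66% called over all genes. Plk3, a stress kinase, rose by 1.24, 1.54 and 1.78, and Cdkn1a, the best known p53 target, had 0.65, 0.34 and 0.66 and did not pass. Mdm2, the p53 antagonist, rose by 0.77 in hom lines and had 0.54 in het and 0.68 in WT lines. With the block Cdkn1a rose by 0.63, 0.48 and 0.66 (adjusted p 0.0020 to 0.0049) and Mdm2 rose in het and WT lines by 0.57 and 0.69 (adjusted p 0.0003 in each). With the block 9, 8 and 8 of these targets rose and 5, 6 and 5 fell, against 14.6%, 12.9% and 11.2% of all genes higher and 15%, 14.6% and 11.7% lower, without E2.9, 1 rose and 1 fell in hom lines, and without E2.6, 3 rose and 2 fell in het lines.

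The genes whose levels followed each hormone most closely over the 30 libraries differed between the 2. By Pearson correlation of log2(CPM + 0.5), the 8 nearest to Gdf15 were Hmox1 (r = 0.92), Tollip (0.913), Snx16 (0.91), Tom1 (0.91), Dync1li1 (0.903), Slc30a1 (0.903), Lamtor3 (0.891) and Atp6v1b2 (0.891). Hmox1 encodes heme oxygenase 1, an NRF2 target, and rose under AO by 2.76 in hom, 2.64 in het and 2.87 in WT lines. Lamtor3 and Atp6v1b2 encode a lysosomal mTORC1 scaffold subunit and a subunit of the lysosomal proton pump. The 8 nearest to Fgf21 were Herpud1 (0.889), Siah2 (0.878), Dnajb9 (0.875), Brd3os (0.865), Cyb5r1 (0.856), Slc3a2 (0.856), Gadd45a (0.854) and Zfp367 (0.854). Herpud1 and Dnajb9 encode proteins of endoplasmic reticulum protein quality control. These correlations carry no test, since all 30 libraries share the split between AO and the rest: by rank correlation 2 of each 8 were kept, and on deviations from group means 0 of each. Gdf15 and Fgf21 correlated with each other at r = 0.786 over the 30 libraries and at 0.213 on the deviations, ranking 218th and 90th of 13363 genes for each other by the first measure, so closer genes existed for both.

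In WT line E1.5 the AO rise of both genes was seen at every density labelled, with 1 library each and no test, on CPM scaled over the libraries of all densities. Gdf15 had 5.15 CPM under AO at high density, 3.81 CPM at low density and 4.65 CPM with no density label, against 0.831, 0.317 and 0.319 CPM untreated. The ratio of AO to untreated was 6.20 (95% exact interval 3.81 to 10.6) at high density, 12 (2.94 to 105.8) at low density and 14.6 (3.62 to 127.4) with no label. Fgf21 had 2.5, 1.81 and 2.13 CPM under AO in the same order, against 0.374, 0.317 and 0.637 CPM untreated. Its ratios were 6.69 (3.25 to 15.5), 5.73 (1.22 to 53.8) and 3.35 (0.991 to 14.4), so the last interval includes 1. After poly(I:C) Gdf15 had 1.0, 0.610 and 0.261 CPM and Fgf21 0.625, 0.407 and 0.131 CPM, in the same order. The high-density libraries counted 101 Gdf15 and 49 Fgf21 reads under AO, and 20 and 9 untreated, and gave the narrowest intervals.

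High over low density, the AO levels had a ratio of 1.35 (0.839 to 2.28) for Gdf15 and 1.38 (0.690 to 3.05) for Fgf21. The untreated ratios were 2.62 (0.637 to 23.1) and 1.18 (0.244 to 11.2). All 4 intervals include 1, and a density effect was not detectable at this depth. Poly(I:C) over untreated gave 1.20 (0.583 to 2.44) at high density and 1.93 (0.221 to 23.1) at low density for Gdf15, and 1.67 (0.610 to 4.65) and 1.28 (0.0930 to 17.7) for Fgf21. These intervals cover counting error only and say nothing of the spread between cultures.

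**Figure D5:**
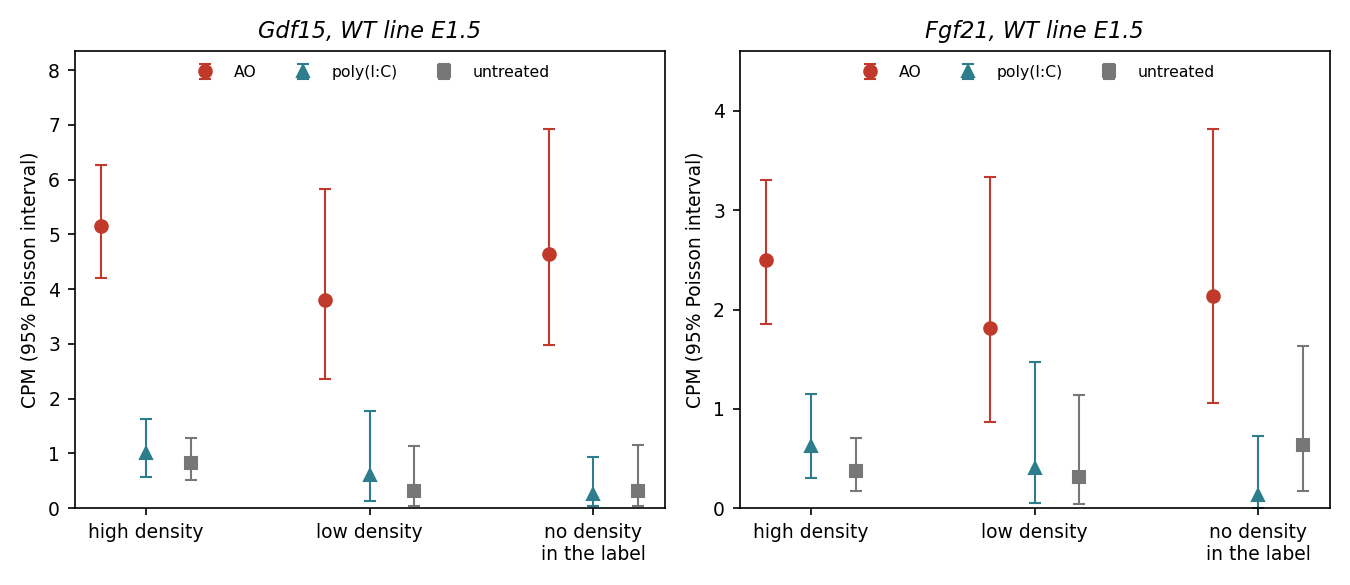
Levels of Gdf15 (left) and Fgf21 (right) in CPM in the 9 libraries of WT line E1.5, by density label, 1 library a point, with exact 95% Poisson intervals on the counts. AO points lie above the poly(I:C) and untreated points at each density, from 3.81 to 5.15 CPM for Gdf15 and from 1.81 to 2.5 CPM for Fgf21.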

How the data were processed

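RNA was sequenced from 36 libraries of 10 MEF lines, prepared with a TruSeq Stranded mRNA kit, per the labels' protocols. The deposited tables hold expected counts per gene that the authors estimated with STAR and RSEM on mm10, per the submitters' processing notes, with versions, annotation release and strand setting not given in the sources used here. Expected counts were rounded to whole numbers, and in each library 6.11 to 13.4% of the genes had a deposited value that was not whole. The 30 libraries without a density label (3689149 to 14879237 reads) were fitted in edgeR 4.0.16 (R 4.3.3) with TMM, a quasi-likelihood test, filterByExpr with a minimum count of 10 and total of 15, and 9 groups, which left 21 residual degrees of freedom. Every adjusted p is from that model over all 13364 genes unless another fit is named, with Benjamini-Hochberg adjustment and a threshold of 0.05. Each line was measured under all treatments, so line pairs the samples: in 30 pairs of libraries of a line, deviations from group means correlated at 0.345 to 0.782. Separate cultures within a line are not described. Within-line differences used log2(CPM + 0.5) and exact sign-flip permutation (SciPy 1.17.1), and the density libraries exact 95% Poisson intervals, which cover counting error only, as do floors of 3 reads for a count of 0. Alternatives were DESeq2 1.42.0, RLE scaling, no filter, line as a block, E1 or E2 as a covariate, the compared groups alone, other pseudocounts, library totals without TMM, and leaving out each line. The edgeR fit without a line term was checked on simulated counts without line effects, for AO against untreated in WT lines only. The other contrasts, fits and tests were not simulated. Named genes were fixed pathway genes, the 2 with the smallest p of each list, and the 8 most correlated with each hormone. Called members of lists were also named after their values were seen. The members and lists were chosen with earlier results of these data known.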

Additional observations from a re-analysis of the deposited data

Results flagged for a closer look

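Over the 10 lines, the AO minus untreated difference of Fgf21 was lowest in het line E1.3, at 0.0212 on the log2(CPM + 0.5) scale, with a gap to the next line large for the range of the group. It rests on 8 reads under AO and 6 untreated. The criterion used marks about 1 group in 20 by chance.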

How the results depend on the processing

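All values here are log2 differences, with adjusted p in parentheses. With line as a replicate block, Fgf21 passed for AO against untreated at 2.03 in WT (0.0101) and 1.98 in het lines (0.00874), and for AO against poly(I:C) at 2.01 in hom lines (0.00565). The block changed no other call of Gdf15 or Fgf21, and its effect on pathway genes stands beside them. DESeq2 called Fgf21 in het lines (2.03, 0.0231) and in hom AO against poly(I:C) (2.0, 0.0288). In AO against untreated it left 1052 genes without an adjusted p in WT lines, and as many in hom lines. Its verdict on Fgf21 in those contrasts is not given here. Fitting the compared groups alone gave Fgf21 in WT lines 2.12 (0.0273), and ended hom calls: Fgf21 2.91 (0.0708), Gdf15 3.29 (0.0829) and Gdf15 against poly(I:C) 3.30 (0.0618). Without the filter, Fgf21 AO against poly(I:C) in het lines was 2.19 (0.0557). Values near 0 changed sign: Gdf15 poly(I:C) in hom lines was 0.15, and hom against WT untreated 0.0128, with E1 or E2 as a covariate, hom against WT untreated was 0.0186 without the filter, and within lines poly(I:C) gave Gdf15 -0.0297 without TMM and Fgf21 0.0075 with pseudocount 1. The cause was not tested. Leaving out 1 line at a time, AO against untreated ranged from 2.57 to 3.70 for Gdf15 in WT and from 2.72 to 3.07 for Fgf21 in hom lines, and Fgf21 AO against poly(I:C) from 2.49 to 3.11 in WT and from 1.63 to 3.05 in het lines. Contrasts not past the threshold that changed sign ranged as follows. Gdf15 poly(I:C) was -0.79 to 0.20 in WT and -0.77 to 0.41 in hom lines, and Fgf21 poly(I:C) -0.67 to 0.35 in het lines. Gdf15 in hom against WT lines was -0.0514 to 0.57 (AO), -0.21 to 0.68 (poly(I:C)) and -0.46 to 0.90 (untreated), and in het against WT lines -0.23 to 0.27, -0.20 to 0.70 and -0.66 to 0.70. Fgf21 in het against WT lines was -0.71 to 0.70 after poly(I:C). Differences of AO response were -0.44 to 0.69 (Gdf15, hom minus WT), -0.47 to 0.65 (Gdf15, het minus WT) and -0.54 to 0.59 (Fgf21, het minus WT), and of poly(I:C) response -0.43 to 0.78 and -0.0054 to 0.98 (Gdf15, hom and het minus WT). Within lines poly(I:C) gave -0.0759 to 0.13 for Gdf15 and -0.14 to 0.10 for Fgf21. Over all genes, AO against untreated called 1749 in hom lines, 1486 in het lines and 565 higher plus 459 lower in WT lines, against 3965, 3671 and 3055 with the block, 1088, 953 and 602 of 25757 without the filter, and 3, 1550 and 2356 with the compared groups alone, and, leaving out 1 line, from 747 to 1607, from 511 to 1535 and from 189 to 239. The counts of list members without E2.6 or E2.9 were chosen after seeing the data. Depth limits both genes: few reads outside AO leave intervals too wide to show small effects of genotype or poly(I:C).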
